A study of Mus musculus with 8 samples.

Results

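The nuclear pore complex and its transport receptors were followed in mouse cells after knockdown of Zrf1. Members were the probes that were not controls and whose gene name in the scanner files begins with Nup followed by a digit or by l, with Kpna or Kpnb, with Ipo or Tnpo followed by a digit, or with Xpo. This gave 68 of 55681 probes and 46 of 36373 gene names, namely 23 pore subunit genes and 23 transport receptor genes. Of these, 66 probes and 45 genes were tested, each well above background on every array of the KD group, the Control group or both. The probe of Nup210l was above background on 0 of 4 KD and 2 of 4 Control arrays, and a second probe of Kpna7 on none of either group.

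The study profiled cells at day 6 of a published neural induction protocol in which mouse embryonic stem cells (ESC) become neural progenitor cells that the labels call RGC-like. The 4 KD samples carried a short hairpin RNA against Zrf1 (shZrf1), and the 4 Control samples carried a control hairpin (shCtrl). Each sample was hybridised to 1 single-colour array from polyadenylated RNA. The labels name no clone and do not say that the samples came from separate cultures, so every p-value measures only the spread between these samples, which may be technical. In the file names, KD 1 and 2 share a number, as do KD 3 and 4, and the second of each pair carries the letters TR, whose meaning is not given in the sources used here. The KD arrays are counted below as 4 samples. Results with the pairs averaged are given where they change the call of a gene whose values are given on every array. For other members, calls with the pairs averaged are given only as counts.

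Nuclear pores are built from nucleoporins arranged in stacked rings. The Y complex forms the outer rings, the inner ring holds the channel, subunits rich in FG (phenylalanine-glycine) repeats fill it, and filaments and a basket extend to the cytoplasm and the nucleus. Importins bind cargo in the cytoplasm and release it in the nucleus when they meet Ran bound to GTP, whereas exportins bind cargo together with Ran-GTP. In mouse ESC, Nup210 and Nup133 are known to be needed for neural differentiation, and importin alpha proteins are known to change in makeup, from Kpna2 towards Kpna1, as neural cells form.

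Changes are KD minus Control in log2 signal, where 0 is the 75th percentile of an array, and a gene was called when its limma adjusted p was under 0.05. Where a gene had several tested probes, the brightest stood for it. Knockdown was checked first. Dnajc2, the current name of Zrf1, had log2 signals of -2.17, -2.08, -2.51 and -2.53 on the KD arrays, against 1.75, 1.87, 1.85 and 2.02 on the Control arrays. The groups lay far apart, with Dnajc2 18.3-fold lower in KD (limma adjusted p = 1.4e-07). The progenitor label was checked on 8 markers, all above background on the Control arrays. Of them 7 were called lower in KD, Fabp7 was not above background on any KD array, and Pax6, at -0.24, was not called (limma adjusted p = 0.101). Their summed linear signal, in units of the array's 75th percentile, ranged over 23.8 to 25.5 on KD arrays and 98.8 to 109.1 on Control arrays. The 5 endoderm markers were all called higher, with sums of 5.05 to 5.44 on KD and 1.49 to 1.88 on Control arrays, and Afp among them was not above background on any Control array. Of 4 ESC markers 3 were called lower, with sums of 18.4 to 20.4 on KD and 52.8 to 58.3 on Control arrays. Of 4 neuron markers 3 were lower and 1, Stmn2, was higher. Tubb3, Dcx and Map2 fell 7.52-fold, 6.48-fold and 1.66-fold. Sums were 8.36 to 9.47 on KD and 5.77 to 7.05 on Control arrays. Stmn2 dominates the KD sum, with a mean log2 signal of 2.97 on KD arrays, where Tubb3, the next brightest, had -0.94. Of 4 mesoderm markers, Pdgfra and Actc1 were higher. The others, T and Mixl1, were too dim to test: no probe of T was above background on more than 1 array, and none of Mixl1 on any. Of 4 fibroblast markers 2 were higher. Beside these marker counts, 28.5% of all tested genes were called lower and 29.1% higher. The changes of all members below come from these same bulk samples, in which fewer cells of a type and less RNA per cell cannot be told apart.

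Most pore subunits taken by the name rule had lower signals in knockdown cells. Of 45 tested member genes 26 were called lower and 4 higher. Across all 21753 tested genes 57.6% were called, 28.5% lower and 29.1% higher. The same shares stand beside the counts of each class below. Among pore subunits 15 of 22 fell and 1 rose, at a median of -0.40, and among transport receptors 11 of 23 fell and 3 rose, at a median of -0.22. The median of all tested genes was 0.04. The pore subunits called lower were 11 of 22 when KD 1 and 2 and KD 3 and 4 were averaged as pairs, 11 without KD 3 and 4, and 9 on slide 2 alone. Calls over all tested probes fell too, from 16598 in the main fit to 14237, 13812 and 12119 in the same order. Among 10 pore subunits that the rule does not take, 3 fell and 2 rose, at a median of -0.06. Most changes were modest: only Nup210 and Ipo9 were lower by at least 2-fold, 1 gene in each class, beside 7.46% of all tested genes, and no member was higher by at least 2-fold, beside 10.4% of all tested genes.

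**Figure D1:**
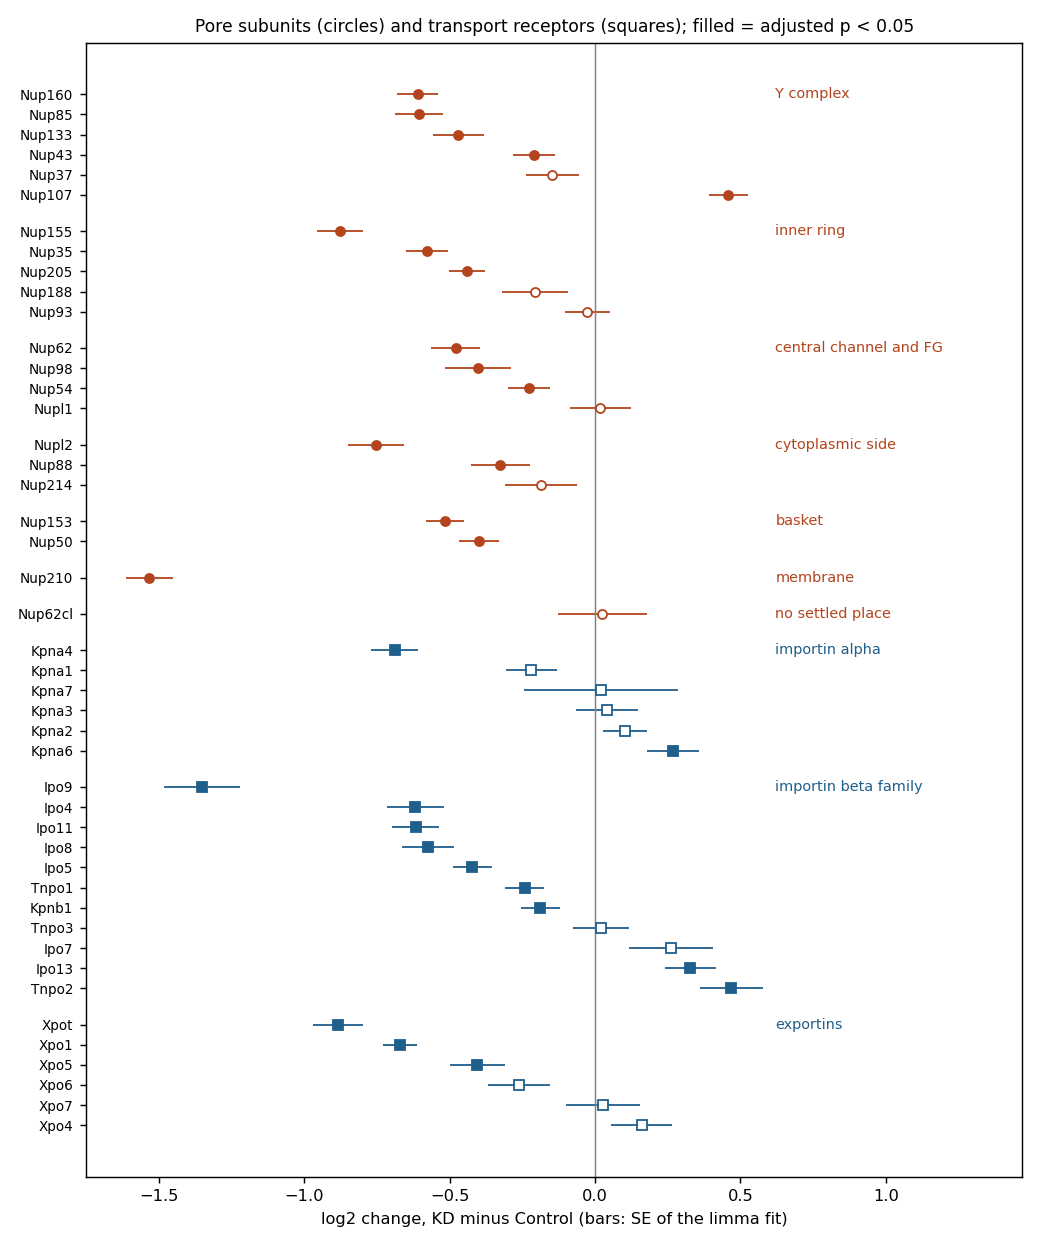
Log2 change, KD minus Control, of every tested member gene with the SE of the limma fit (horizontal axis), grouped by place in the pore or receptor family (vertical axis). Circles are pore subunits, squares are transport receptors, and filled symbols passed an adjusted p of 0.05. Nup210 at -1.53 and Ipo9 at -1.35 lie farthest to the left, and Nup107 at 0.46 is the only filled circle to the right of 0.

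Nup210 carried the largest fall of any member. It encodes a transmembrane glycoprotein that anchors the pore in the nuclear envelope and is present only in some cell types. Its log2 signal was 3.49, 3.31, 3.29 and 3.42 on the KD arrays, against 4.87, 4.88, 5.06 and 4.83 on the Control arrays. All KD arrays were low and all Control arrays high, with a gap wider than the spread within either group. The means were 3.38 ± 0.09 in KD and 4.91 ± 0.10 in Control (SD, n = 4 each), so that Nup210 was 2.89-fold lower (limma adjusted p = 1.65e-06). It was lower on each of the 3 slides, by -1.39, -1.64 and -1.45.

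A second Nup210 probe gave another picture. The probe that fell (A_55_P2092661) lies at chr6:90963064-90963123 on mm9, minus strand, from base 6972 of its target transcript, and the second (A_55_P2092696) at chr6:91035854-91035913, from base 798. The second read -2.87, -2.86, -2.95 and -2.86 on KD arrays, against -2.76, -2.74, -2.99 and -2.93 on Control arrays. Its groups overlapped, and its change of -0.03 did not pass (limma adjusted p = 0.756). This second probe was far dimmer, with a Control mean of -2.85 where the first had 4.91, but above background on 4 of 4 KD and 4 of 4 Control arrays. Whether its low signal bears on the difference between the probes was not tested. The first 30 bases of both probes, each of 60 bases, are shown because the result for Nup210 depends on which is read.
Nup210 A_55_P2092661: ccgagagctgttaatggagtcttccctgca
Nup210 A_55_P2092696: ctgctggtgggaacctccattcactacaag

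In the Y complex, the outer ring scaffold, 4 of 6 tested genes fell and 1 rose, with a median of -0.34. Nup160 read 0.87, 1.10, 0.92 and 0.89 on KD arrays, against 1.55, 1.60, 1.53 and 1.53 on Control arrays. The groups did not overlap, and Nup160 was 1.53-fold lower (limma adjusted p = 0.000134). Nup85, another member of the ring, read 4.31, 4.23, 4.35 and 4.24 on KD arrays, against 4.75, 4.84, 5.07 and 4.90 on Control arrays. It too was lower on every KD array, by 1.52-fold (limma adjusted p = 0.00034). Nup133, the subunit needed for neural differentiation of mouse ESC, fell 1.39-fold (limma adjusted p = 0.00189) and Nup43 1.16-fold (limma adjusted p = 0.0358), while Nup37 changed by -0.15 and did not pass (limma adjusted p = 0.213).

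Nup107, which binds Nup133 in the stem of the same complex, went the other way. Its log2 signal was 5.64, 5.56, 5.60 and 5.63 on the KD arrays, against 5.19, 5.14, 5.24 and 5.03 on the Control arrays. Every KD array was above every Control array, and Nup107 rose 1.37-fold (limma adjusted p = 0.000505), by 0.50, 0.45 and 0.44 within the 3 slides. None of the other 21 pore subunits taken by the name rule was called higher by its brightest probe. With each array scaled by its median the change was 0.29 and no longer passed (limma adjusted p = 0.0939), and on slide 2 alone it missed narrowly (limma adjusted p = 0.0517).

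The promoter windows of Nup210 and Nup107 are shown because, among the pore subunits taken by the name rule, they had the largest fall and the only rise. Both come from RefSeq on GRCm38.p6, 5′ to 3′ on the minus strand, from 250 bases before to 50 after the start of the gene. That of Nup210 is chr6:91116777-91117076 and that of Nup107 chr10:117792656-117792955. Capitals mark matches, on either strand, to the NRF1 core GCGCATG, the ETS motif CCGGAAG or the GC box GGGCGG.
Nup210: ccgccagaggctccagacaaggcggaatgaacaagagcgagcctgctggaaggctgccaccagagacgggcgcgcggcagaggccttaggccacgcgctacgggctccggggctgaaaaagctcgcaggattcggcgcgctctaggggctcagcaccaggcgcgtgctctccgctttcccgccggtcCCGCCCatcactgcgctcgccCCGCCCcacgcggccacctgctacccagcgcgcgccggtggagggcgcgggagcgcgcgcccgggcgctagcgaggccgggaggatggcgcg
Nup107: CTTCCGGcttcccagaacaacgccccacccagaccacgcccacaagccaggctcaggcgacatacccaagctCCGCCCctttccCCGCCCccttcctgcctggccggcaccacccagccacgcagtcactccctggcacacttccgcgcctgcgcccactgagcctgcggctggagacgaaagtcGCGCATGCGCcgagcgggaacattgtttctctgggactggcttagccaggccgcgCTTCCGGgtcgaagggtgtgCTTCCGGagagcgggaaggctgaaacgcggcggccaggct
The Nup107 window holds all 3 motifs and the Nup210 window holds GC boxes only.

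Windows were found for 37 of the 46 members, 44 windows in all, and motifs were searched on both strands, with each motif searched by itself so that matches may overlap. The NRF1 core stood in 18.2% of member windows and in 3.91% of all 32851 RefSeq windows of the same length. That share was 27.3% for pore subunits, or 6 of 22 windows, and 9.09% for receptors, or 2 of 22. The ETS motif stood in 15.9% of member windows and 8.86% of all, the GC box in 63.6% and 35.7%, and CCAAT in 54.5% and 37.4%. TATAAA was in 9.09% of member windows and 13.6% of all, and the E2F letters TTTGGCG or TTTCGCG in 4.55% and 2.37%. Windows of members called lower held the NRF1 core in 18.5% of cases and the ETS motif in 11.1%, those of members not called lower in 17.6% and 23.5%. These matches describe the letters of the windows and are no evidence of binding.

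Inner ring genes, which line the pore wall, fell in 3 of 5 cases with a median of -0.44. Nup155, a scaffold subunit of this ring, read 1.45, 1.36, 1.39 and 1.35 on KD arrays, against 2.31, 2.22, 2.41 and 2.11 on Control arrays. The KD arrays were tightly grouped and all below the Control arrays. Nup155 was 1.84-fold lower (SE 0.08 on the log2 scale, limma adjusted p = 2.86e-05), with -0.77, -0.89 and -0.95 within the slides. Nup35, which bridges the ring to the membrane, read 3.30, 3.34, 3.18 and 3.11 on KD arrays, against 3.81, 3.80, 3.88 and 3.76 on Control arrays. All its KD values were lower, by 1.49-fold (limma adjusted p = 0.00021), and its second probe fell too, by 0.55 on the log2 scale. Nup205 fell 1.36-fold (limma adjusted p = 0.000388). Its relative Nup188 changed by -0.21 and did not pass with its brightest probe (limma adjusted p = 0.161), while a dimmer probe of Nup188 was called higher, at 0.45 (limma adjusted p = 0.00222). Nup93, the ring's linker, changed by -0.03 and did not pass (limma adjusted p = 0.801). A far dimmer Nup93 probe changed by 0.80 and did not pass either (limma adjusted p = 0.187), with a Control SD of 1.04.

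Of 4 subunits placed here in the central channel, where FG repeats form the barrier, 3 fell, with a median of -0.31. FG subunits of the basket and the cytoplasmic side are counted there. Nup62, the central channel protein, read 5.98, 5.72, 5.89 and 5.91 on KD arrays, against 6.29, 6.39, 6.48 and 6.25 on Control arrays. No KD array reached the lowest Control array, and Nup62 was 1.39-fold lower (limma adjusted p = 0.00136). Its partner Nup54 fell 1.17-fold with its brightest probe (limma adjusted p = 0.0249), while a dimmer Nup54 probe changed by -0.07 and did not pass (limma adjusted p = 0.702). The other partner of Nup62, Nupl1, changed by 0.02 on a dim probe, with means of -2.20 in KD and -2.21 in Control. Nup98, an FG subunit that also moves within the nucleus, read 1.28, 1.32, 1.02 and 0.96 on KD arrays, against 1.57, 1.46, 1.75 and 1.42 on Control arrays. Its groups did not overlap, and it was 1.32-fold lower (limma adjusted p = 0.016), but with the KD pairs averaged it missed (limma adjusted p = 0.0564), and without KD 3 and 4 together it changed by -0.25 and did not pass (limma adjusted p = 0.141).

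On the cytoplasmic side, where mRNA leaves the pore, 2 of 3 genes fell, with a median of -0.33. Nupl2, the partner of the mRNA export factor Gle1, read 0.93, 0.82, 0.61 and 0.60 on KD arrays, against 1.51, 1.45, 1.60 and 1.41 on Control arrays. The groups were well separated, with Nupl2 1.69-fold lower (limma adjusted p = 0.000222). A second Nupl2 probe fell by 0.82 on the log2 scale, and another, of low signal, changed by -0.21 and did not pass (limma adjusted p = 0.657). Nup88 read 2.67, 2.69, 2.84 and 2.56 on KD arrays, against 2.87, 2.89, 3.20 and 3.11 on Control arrays. The highest KD array lay just under the lowest Control array, and the fall of 1.25-fold was near the threshold (limma adjusted p = 0.0239). It missed in 11 of 21 tested alternatives, among them the KD pairs averaged (limma adjusted p = 0.0742), without Control 4 (limma adjusted p = 0.0637) and without KD 1, 2 or 4 (limma adjusted p = 0.0524, 0.0517 and 0.0656). Nup214, the binding partner of Nup88, changed by -0.19 and did not pass (limma adjusted p = 0.238). Its probe was dim, with means of -3.21 in KD and -3.02 in Control.

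Both tested basket subunits fell. Nup153, which anchors the nuclear basket and also binds chromatin, was spotted 10 times on each array. Its log2 signal was 2.93, 2.92, 2.92 and 2.95 on KD arrays, against 3.44, 3.56, 3.42 and 3.36 on Control arrays. The KD arrays were nearly equal and all lower, and Nup153 was 1.43-fold lower (limma adjusted p = 0.000205). Nup50, a mobile basket protein that helps to release importin alpha from cargo, read 2.03, 2.01, 1.85 and 1.95 on KD arrays, against 2.37, 2.39, 2.39 and 2.26 on Control arrays. All KD arrays were lower, by 1.32-fold (limma adjusted p = 0.00133), and on slide 2 alone the call was lost (limma adjusted p = 0.0666). Nup62cl, a relative of Nup62 with no settled place in the pore, changed by 0.03.

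**Figure D2:**
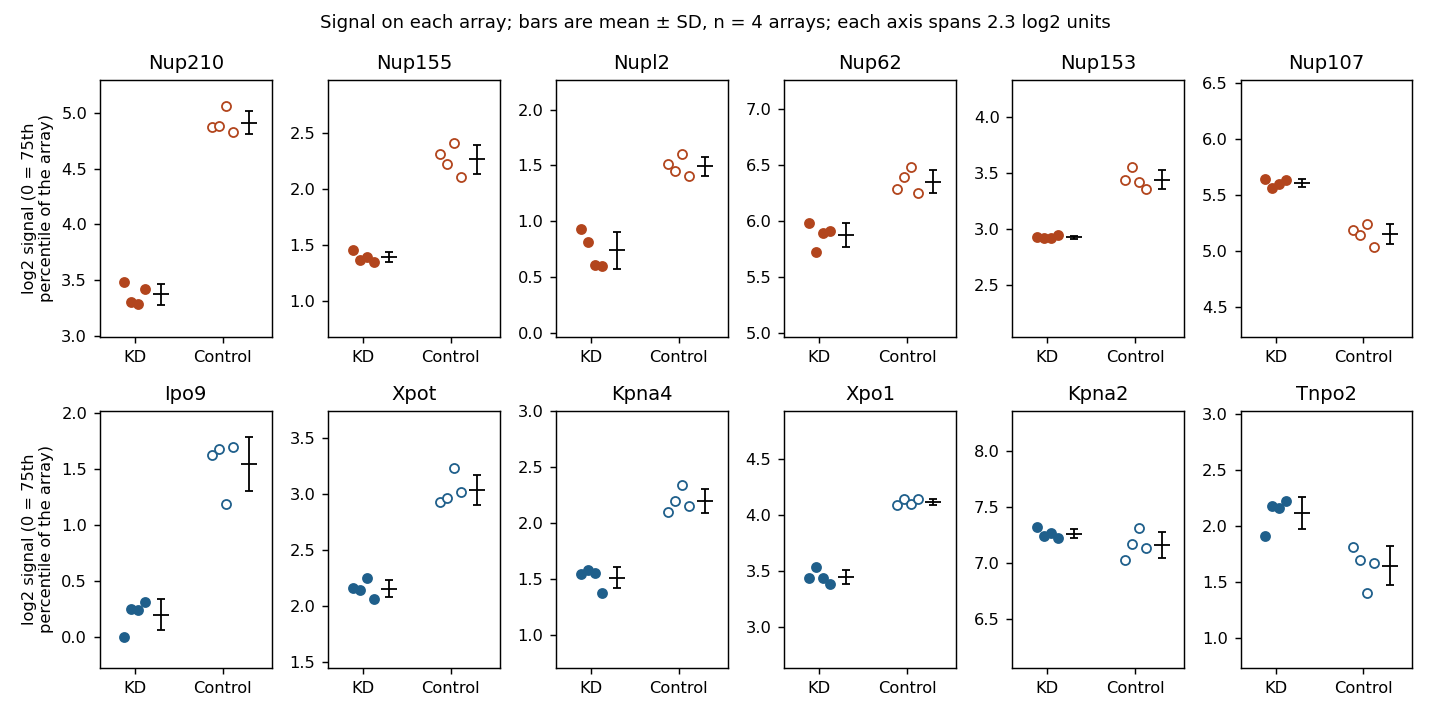
Log2 signal (vertical axes, 0 is the 75th percentile of the array, each spanning 2.3 units) of 6 pore subunits (top) and 6 receptors (bottom) on the KD arrays (filled, left) and the Control arrays (open, right), with mean ± SD of 4 arrays. The groups overlap for Kpna2 only, KD is above Control for Nup107 and Tnpo2, and 1 Control array of Ipo9, at 1.19, lies below the other Control arrays.

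Importin alpha proteins are the adaptors that read classical nuclear localisation signals, and 1 of 6 fell and 1 rose, at a median change of 0.03. The shares over all tested genes were 28.5% lower and 29.1% higher, with a median of 0.04. Kpna4 read 1.54, 1.58, 1.55 and 1.37 on KD arrays, against 2.10, 2.19, 2.34 and 2.15 on Control arrays. It was low on every KD array, 1.61-fold lower (limma adjusted p = 0.000142). Kpna6 read 3.40, 3.22, 3.10 and 3.08 on KD arrays, against 2.84, 2.96, 3.03 and 2.87 on Control arrays. The lowest KD array lay just over the highest Control array, and the rise of 1.21-fold was near the threshold (limma adjusted p = 0.0321). It was lost in 11 of 21 tested alternatives, among them the KD pairs averaged (limma adjusted p = 0.0787), median scaling (0.10, limma adjusted p = 0.586) and without Control 1, 2 or 4 or KD 1 or 2 (limma adjusted p = 0.0797, 0.0556, 0.0783, 0.0635 and 0.0704). Its second probe changed by -0.09.

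Kpna2 and Kpna1, the importin alpha pair known for its switch in neural differentiation, were not called. Kpna2, abundant in ESC, read 7.32, 7.24, 7.27 and 7.22 on KD arrays, against 7.03, 7.17, 7.31 and 7.13 on Control arrays. The groups overlapped, and the change of 0.10 (SE 0.08) did not pass (limma adjusted p = 0.288). The other 3 Kpna2 probes, which lie within the same stretch of the gene, changed by 0.05 to 0.10, and median scaling put the gene at -0.07. Kpna1 read 1.64, 1.60, 1.39 and 1.43 on KD arrays, against 1.71, 1.70, 1.89 and 1.64 on Control arrays. KD 1 and Control 4 were equal to 2 decimals. The change of -0.22 (SE 0.09) did not pass (limma adjusted p = 0.0641), and it passed without KD 1 (limma adjusted p = 0.0494), without KD 1 and 2 together (limma adjusted p = 0.0379) and with median scaling (limma adjusted p = 0.0405). Kpna3 and Kpna7 changed by 0.04 and 0.02, and Kpna7 was dim, with means of -3.06 in KD and -3.08 in Control.

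The importin beta family, whose members carry cargo through the FG barrier, divided into 7 genes that fell and 2 that rose of 11, with a median of -0.24. Ipo9, an import receptor for histones and actin, read 0.00, 0.25, 0.24 and 0.31 on KD arrays, against 1.63, 1.68, 1.19 and 1.70 on Control arrays. Control 3 was below the other Control arrays but well above all KD arrays. The means were 0.20 ± 0.14 in KD and 1.55 ± 0.24 in Control (SD, n = 4 each), so that Ipo9 was 2.55-fold lower (limma adjusted p = 4.62e-05), with -1.68, -1.20 and -1.32 within the slides. Its probe lies at chr1:137279150-137279209 on mm9, minus strand. Ipo4, another histone importer, read 2.71, 2.45, 2.33 and 2.56 on KD arrays, against 3.15, 3.20, 3.19 and 2.99 on Control arrays. All KD arrays were lower, by 1.53-fold (limma adjusted p = 0.000749). Ipo11 fell 1.53-fold, Ipo8 1.49-fold and Ipo5 1.34-fold with its brightest probe (limma adjusted p = 0.000247, 0.000669 and 0.000825). A dimmer Ipo5 probe changed the other way, by 0.29, and did not pass (limma adjusted p = 0.0905). Tnpo1, the receptor for many RNA-binding proteins, fell 1.18-fold (limma adjusted p = 0.0142).

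Kpnb1, the beta subunit that pairs with importin alpha, was among the genes nearest the threshold. It read 3.30, 3.44, 3.48 and 3.38 on KD arrays, against 3.55, 3.64, 3.52 and 3.63 on Control arrays. The groups did not overlap, and the fall was 1.14-fold (limma adjusted p = 0.0441). The call was lost in 16 of 21 tested alternatives, among them slide as a block (limma adjusted p = 0.0658), the KD pairs averaged (limma adjusted p = 0.114), without Control 1, 2 or 4 (limma adjusted p = 0.0673, 0.11 and 0.106) and without KD 1, 2 or 4 (limma adjusted p = 0.0999, 0.0646 and 0.0994). Ipo7 changed by 0.26 and did not pass (limma adjusted p = 0.158), and Tnpo3, the importer of splicing factors, by 0.02.

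Tnpo2 and Ipo13 were the beta family members that rose. Tnpo2, the close relative of Tnpo1, read 1.91, 2.18, 2.16 and 2.22 on KD arrays, against 1.81, 1.70, 1.40 and 1.67 on Control arrays. Every KD array was higher, by 1.38-fold (limma adjusted p = 0.00632). The call was lost with median scaling (0.30, limma adjusted p = 0.0751) and without KD 3 and 4 (limma adjusted p = 0.069). Ipo13, which carries cargo in both directions, read 3.37, 3.14, 3.02 and 3.15 on KD arrays, against 2.91, 2.87, 2.86 and 2.73 on Control arrays. The groups did not overlap, with a rise of 1.26-fold (limma adjusted p = 0.013). Median scaling put it at 0.16 (limma adjusted p = 0.318), and without KD 1 and 2 it was 0.24 (limma adjusted p = 0.0747).

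Exportins fell in 3 of 6 cases and none rose, with a median of -0.33. Xpot, the tRNA exporter, read 2.16, 2.14, 2.25 and 2.06 on KD arrays, against 2.93, 2.96, 3.23 and 3.02 on Control arrays. The groups were far apart, and Xpot was 1.85-fold lower (limma adjusted p = 4.84e-05). Its second probe fell 2.06-fold (limma adjusted p = 0.000238). Xpo5, the exporter of miRNA precursors, fell 1.32-fold (limma adjusted p = 0.00691). Xpo6, the exporter of actin, changed by -0.26 and did not pass (limma adjusted p = 0.069), and Xpo7 and Xpo4 changed by 0.03 and 0.16.

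Xpo1, also called CRM1 and the main exporter of proteins with leucine-rich signals, had a pair of probes that differed. The brighter (A_51_P336635), at chr11:23196643-23196702 on mm9, plus strand, read 3.44, 3.53, 3.44 and 3.38 on KD arrays, against 4.09, 4.14, 4.10 and 4.14 on Control arrays. Its groups were clearly separate, at 3.45 ± 0.06 in KD and 4.12 ± 0.03 in Control (SD, n = 4 each), and it was 1.59-fold lower (limma adjusted p = 2.79e-05). The other probe (A_55_P2089942), at chr11:23196173-23196232, read 3.43, 3.52, 3.51 and 3.42 on KD arrays, against 3.47, 3.50, 3.50 and 3.56 on Control arrays. Those groups overlapped, with a change of -0.04 (limma adjusted p = 0.619). The first 30 bases of both probes are given because the call for Xpo1 depends on the probe, from base 4189 of the target transcript for the first and base 3719 for the second.
Xpo1 A_51_P336635: gcaagatcatgtgcatatcatcccattgta
Xpo1 A_55_P2089942: gattatttgtcgaccaaaatgatgccaatt

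All probes of each gene were then compared. Of 15 member genes with more than 1 tested probe, 7 had the same call on all their probes, among them Xpot and Nup35 (lower on both) and Kpna2 (4 probes, none called). For the rest, at least 1 probe was called and at least 1 was not, and no gene had probes called in opposite directions. Counted over probes, 30 of 66 member probes were called lower and 5 higher, with a median change of -0.21, where 57.0% of all 29098 tested probes were called, 28.1% lower and 29.0% higher. By at least 2-fold, 3 member probes were lower and 0 higher, beside 7.69% and 10.5% of all tested probes. The groups did not overlap for 36 member probes, beside 54.1% of all. With the mean of all tested probes of a gene in place of the brightest, 14 pore subunits and 10 receptors were called lower. Whether these probes lie in different exons was not analysed here.

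**Figure D3:**
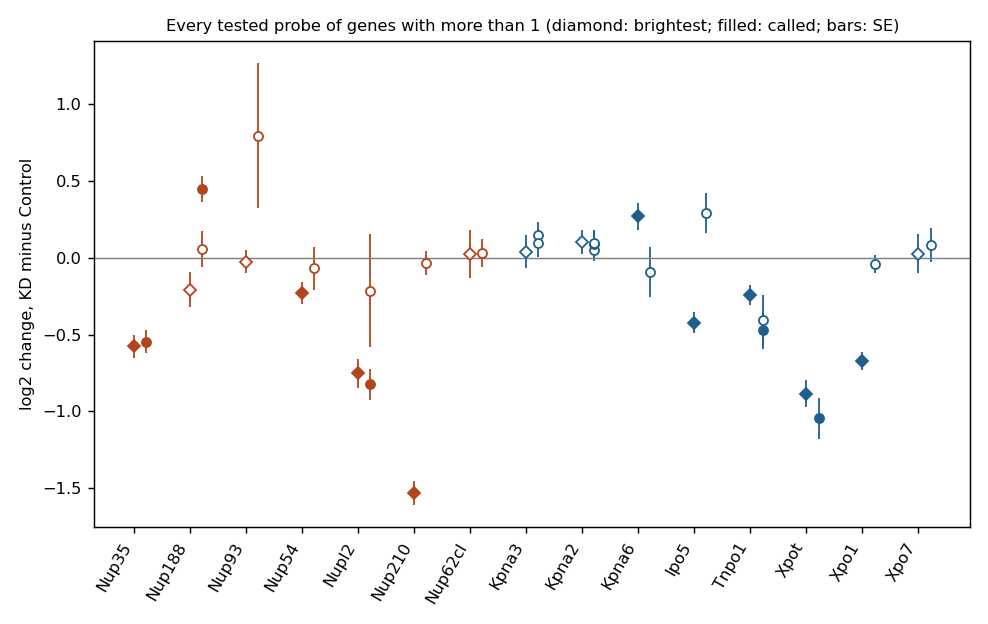
Log2 change, KD minus Control, with SE (vertical axis) of every tested probe of the 15 member genes with more than 1 (horizontal axis), pore subunits in orange and receptors in blue. Diamonds are the brightest probes, circles are the others, and filled symbols were called. The Nup210 probes lie at -1.53 and -0.03 and the Xpo1 probes at -0.67 and -0.04, while the Xpot probes lie at -0.88 and -1.05.

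Set side by side, the pore subunits taken by the name rule had a lower median than the receptors it takes. Outside the rule the order was the other way. There, 10 other pore subunits had a median of -0.06 and 11 Ran cycle and other receptor genes -0.75. Of 22 pore subunits 19 changed by less than 0, against 13 of 23 receptors, and this held for 10239 of all 21753 tested genes. The middle of the pore subunits ran from -0.56 to -0.19 (the quartiles) and that of the receptors from -0.60 to 0.07, and for all tested genes it ran from -0.40 to 0.45. The groups did not overlap for 16 pore subunits and 15 receptors, where this held for 55.0% of all tested genes. No test of the difference between both classes was made, since their members were picked by name and genes are not replicates.

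**Figure D4:**
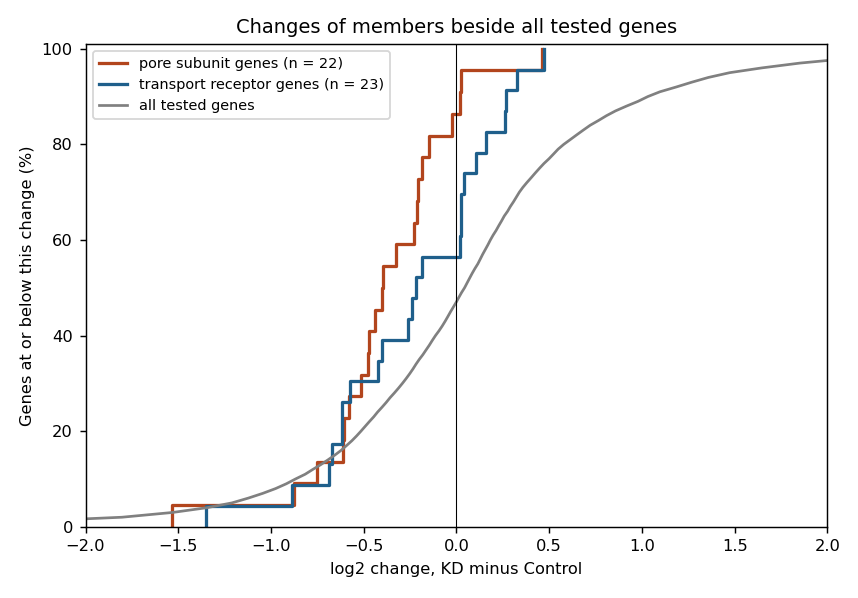
Share of genes (vertical axis, percent) at or below a given log2 change, KD minus Control (horizontal axis). Curves are for 22 pore subunit genes (orange) and 23 transport receptor genes (blue) taken by the name rule, and all tested genes (grey). The pore curve reaches 50% near -0.40, the receptor curve near -0.22 and the curve of all genes near 0.04, while on the far left, below about -1, the curves lie close together.

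The median over the pore subunits, taken on each array relative to the Control mean, was -0.32, -0.37, -0.46 and -0.45 on KD arrays, against 0.00, 0.03, 0.06 and -0.07 on Control arrays. For receptors it was -0.18, -0.14, -0.27 and -0.25 on KD arrays, against -0.03, 0.03, 0.02 and -0.01 on Control arrays. Every KD array was therefore below every Control array in both classes. Within slides 1, 2 and 3 the median was -0.37, -0.41 and -0.40 for pore subunits and -0.25, -0.23 and -0.25 for receptors. Scaling by the array median moved all genes by more than 0.1, to a median of -0.13, with 37.7% of calls higher in place of 50.8%, and the pore median to -0.57 and the receptor median to -0.39. Relative to all genes the pore subunits were at -0.44 and the receptors at -0.26 under both scalings. These had to be equal, since each scaling subtracts the same value from every probe of an array. With quantile normalization, which can differ, they were at -0.34 and -0.15.

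Genes that mark growing and dividing cells also moved. Of 5, 4 were called lower, beside 28.5% of all tested genes, with a median of -0.26 over the 5. The replication factors Mcm5 (-0.92) and Pcna (-0.74) fell most, and Mki67 (-0.26) and Ccnb1 (-0.21) fell less. Top2a changed by 0.15 and was not called (limma adjusted p = 0.458). The summed linear signal of the 5 genes, in which Pcna, the brightest, weighs most, ranged over 160.4 to 168.4 on KD arrays and 234.3 to 247.5 on Control arrays. The part that these genes, or the progenitor and endoderm markers given above, have in the fall of the pore and receptor genes was not tested.

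Transport genes that the name rule does not take were read from the same limma fit. Among the Ran cycle and other receptors 9 of 11 were called lower and 1 higher, with a median of -0.75. For mRNA export genes it was 9 of 12 lower and 1 higher, with -0.55, and for other pore subunits 3 of 10 lower and 2 higher, with -0.06. Over all tested genes 28.5% were called lower and 29.1% higher, so the other pore subunits lay near the general share of falls. Ran, the GTPase that gives transport its direction, fell 1.18-fold (limma adjusted p = 0.0266), and Rcc1, its exchange factor on chromatin, 1.68-fold (limma adjusted p = 1.69e-05). Rangap1, which triggers GTP hydrolysis in the cytoplasm, changed by 0.20 and did not pass (limma adjusted p = 0.0983). Cse1l, the exportin that returns importin alpha to the cytoplasm, fell 1.84-fold (limma adjusted p = 0.000768). Ranbp6 and Ranbp17, both related to importin beta, fell 2.25-fold and 2.24-fold (limma adjusted p = 3.98e-05 and 0.000173).

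In the mRNA export list the changes of at least 2-fold were those of Nxf1, the main mRNA export receptor, and the helicase Ddx39b, each 2.24-fold lower, of the THO subunit Thoc1, 2.54-fold lower, and of Nxt2, a partner of Nxf1, 2.54-fold higher (limma adjusted p = 3.93e-06, 6.21e-06, 4.34e-06 and 2e-06). Of the other pore subunits, the membrane protein Pom121, named after its values were seen, fell by 1.00 on the log2 scale (limma adjusted p = 1.8e-05). The other called subunits of that list, also named afterwards, were the Y complex subunits Seh1l, which fell by 0.59, and Sec13, which rose by 0.24, the basket protein Tpr, which fell by 0.43, and the mRNA export factor Gle1, which rose by 0.28 (limma adjusted p = 0.000196, 0.0467, 0.0286 and 0.0108).

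**Figure D5:**
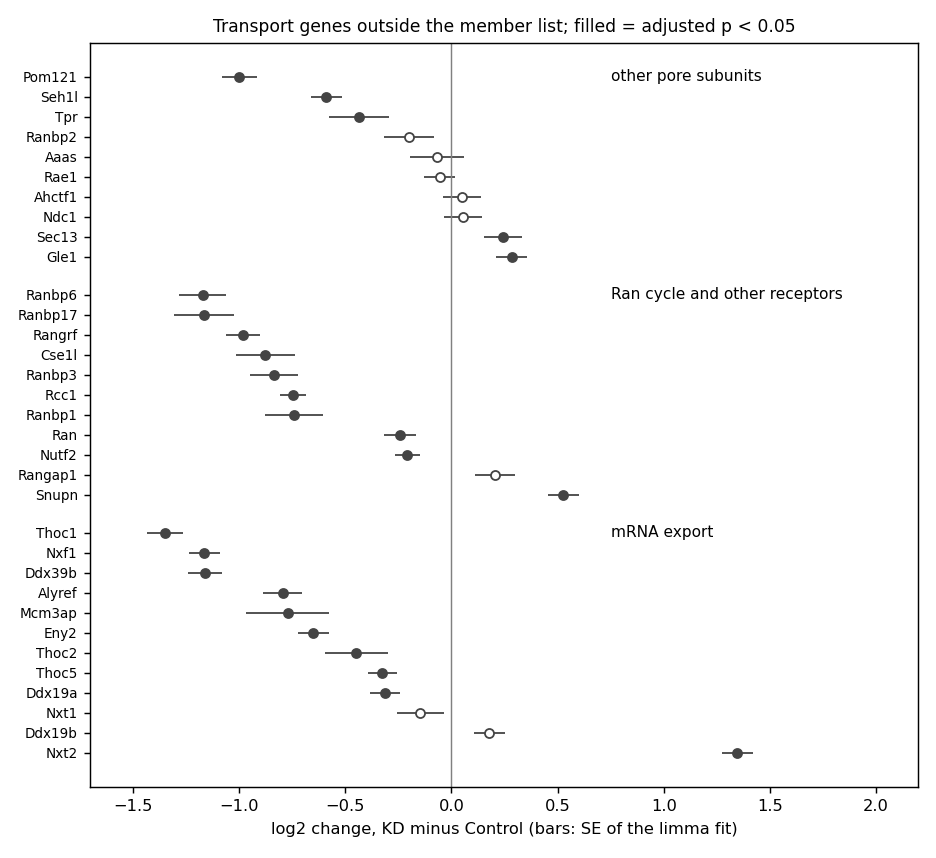
Log2 change, KD minus Control, with SE (horizontal axis) of 33 transport genes outside the name rule, in 3 lists (vertical axis), with filled symbols for an adjusted p under 0.05. Thoc1 at -1.35 and Nxt2 at 1.35 mark the ends of the range, and 18 of the 23 Ran cycle and mRNA export genes are filled on the left of 0.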

How the data were processed

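RNA of 8 mouse samples, 100 ng each, was labelled with Cy3 and hybridised to 1 Agilent array per sample, of design 028005. Per the file headers, the deposited scanner files hold spot intensity from Feature Extraction 10.7.3.1, background-subtracted within each array and not scaled between arrays. The authors' deposited value table holds log2 values, whose making is not given in the sources used here, and served as an alternative only. In the tables, 0 columns of samples were left unused.

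Each array held 59305 non-control spots, 53.4% to 60.3% of them well above background and none saturated, and the 75th percentile of processed signal was 483 to 696. The number of arrays limits the precision.

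Spots of a probe were averaged without outlier spots, and log2 signals were centred by subtracting log2 of the array's 75th percentile, taken over spots. A probe was tested if at least 0.5 of its spots were above background on every array of at least 1 group. KD was compared with Control by limma's two-sided moderated test (version 3.58.1, R 4.3.3, lmFit then eBayes). P-values were adjusted over 29098 probes by Benjamini-Hochberg. Arrays lay on 3 slides, each with both groups. Replicate numbers did not pair KD with Control arrays: correlations of deviations of same-numbered arrays were 0.10, -0.12, 0.11 and -0.19. They were 0.11 to 0.32 for KD and Control arrays of the same slide, and -0.26 to 0.10 for those of different slides.

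The members and lists were chosen with earlier results of these data known, so no list was tested. Values on every array are given for the genes with the largest called rises and falls of each class (up to 2 each way), called changes of at least 2-fold, Kpna1, Kpna2, Kpnb1 and Xpo1. Outside the member list, values are given for Dnajc2 and, of the transport lists, for Ran, Rcc1, Rangap1, Cse1l and called changes of at least 2-fold. Pom121, Seh1l, Sec13, Tpr, Gle1, Pax6, Stmn2, Mcm5 and Pcna were named after their values were seen. So were the other mesoderm, neuron and dividing-cell markers given by name. For other members the change is given. Names were updated through RefSeq, with 26300 probes matched by accession, 2044 by symbol, 355 by synonym and 26982 kept as in the file. Protein sequences were not analysed here.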

Additional observations from a re-analysis of the deposited data

Results flagged for a closer look

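Among 46 groups of 4 arrays, those of the named genes, 2 held an array far from the other 3 by Dixon's critical value. Chance gives about 1 in 20 such groups. In Ipo9, Control 3 had a log2 signal of 1.19, against 1.63 to 1.70 on the other Control arrays. In Nup50, Control 4 had a log2 signal of 2.26, against 2.37 to 2.39 on the other Control arrays. Both values lay above all KD values of the same gene.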

How the results depend on the processing

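No called change reversed, and of the named genes that were not called, Kpna2 changed sign with median scaling, to -0.07. Of 23 named genes, 14 stayed on the same side of the threshold in all 21 tested alternatives, and the exceptions are Kpnb1, Kpna6, Nup88, Nup98, Ipo13, Tnpo2, Nup107, Nup50 and Kpna1. Leaving out 1 array at a time gave 27 to 29 member probes lower and 4 to 6 higher, 13 to 14 pore subunits lower and 1 higher, 10 to 11 receptors lower and 2 to 4 higher, and medians of -0.44 to -0.36 for the pore and -0.26 to -0.19 for receptors. Scaling by the array median left 0 member probes, 0 pore subunits and 0 receptors higher, with medians of -0.57 and -0.39. Quantile normalization gave medians of -0.33 and -0.13, and the authors' values -0.31 and -0.10. With no filter on dim probes, 3 member probes and 1 receptor were higher. Without KD 1 and 2 together these numbers were 3 and 1, and without KD 3 and 4 together the pore median was -0.34. Slide 2 alone, an alternative chosen after seeing the data and with fewer arrays, gave 2 member probes higher, 9 pore subunits lower and 0 higher, and 1 receptor higher. With the replicate block, 26 member probes were lower and 4 higher, 13 pore subunits lower and 1 higher, and 9 receptors lower and 2 higher. Of the named genes, Kpna6 and Kpnb1 lost their calls (limma adjusted p = 0.0926 and 0.13). Where no value shows it, the cause was not tested. With the KD arrays that share a file-name number averaged, 23 member probes were lower and 4 higher. Called lower were 11 pore subunits and 9 receptors. Of the named genes, Nup98, Nup88, Kpna6 and Kpnb1 lost their calls. With slide as a block, 29 member probes were lower and 5 higher, and of the named genes Kpnb1 alone lost its call. Calls over all tested probes also moved between alternatives, from 12119 on slide 2 alone to 17302 with slide as a block, beside 16598 in the main fit. They were 14237 with the KD pairs averaged and 15011 with the replicate block. Some probes were dim, such as the second of Nup210, and how low signal bears on the measured changes was not tested.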
